A study of Danio rerio with 6 samples.

Results

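The Notch genes described here are 10 of the 32059 genes in a count table of zebrafish thyroid follicular cells: the her target genes her6, her9 and her15.1, the receptor genes notch1a, notch1b, notch2 and notch3, and the Jagged ligand genes jag1a, jag1b and jag2b. Each was matched by its gene name, and every one had exactly 1 row. They were chosen by name with their counts and CPM in the contrast of pax2a-high with pax2a-low cells already known. The levels, fold changes and adjusted p-values of these 10 genes therefore describe that contrast and are no independent evidence for it.

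In Notch signalling a receptor on one cell is bound by a Delta or Jagged ligand on its neighbour, is cleaved by an ADAM metalloprotease and then by gamma-secretase, and releases an intracellular fragment that joins the DNA-binding protein Rbpj. The complex switches on genes of the hairy and Enhancer-of-split class, called her genes in zebrafish, whose products are basic helix-loop-helix repressors. In the skin of zebrafish embryos, Delta-Notch signalling between neighbouring cells limits how many of them become ionocytes, the ion-transporting cells specified by foxi3 factors.

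RNA was sequenced from sorted cells of zebrafish aged 5 months post fertilization. All fish carried Tg(tg:nls-EGFP), in which the promoter of the thyroglobulin gene tg drives nuclear EGFP, and a knock-in of mKO2 at the pax2a locus. Sorting on mKO2 gave 3 pax2a-high (mKO2-High) and 3 pax2a-low (mKO2-Low) libraries, and the comparison asks how the 2 populations differ. The labels do not say that replicates came from separate fish or pools, so the p-values reflect only how far these libraries differ, which may be technical.

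The pax2a-high libraries held 18014891 to 35403210 counts and the pax2a-low libraries 6053741 to 10932845 counts, so low levels were measured less well in pax2a-low cells. A library's value is given as CPM, counts per 1000000 of the scaled library size, and 3 counts corresponded to 0.0842 to 0.183 CPM in pax2a-high, against 0.234 to 0.578 CPM in pax2a-low libraries. The labelled cell type held for pax2a-high cells, where the 8 thyroid follicular markers found in the table (tg, slc5a5, tshr, pax8, hhex, nkx2.4b, nkx2.1 and dio1) summed to 158264 to 240512 CPM. In pax2a-low libraries they summed to 3602 to 32678 CPM, with tshr, nkx2.4b and dio1 at 0 in replicate 1. The row nkx2.1 was at 0 in all pax2a-low libraries, but also in pax2a-high replicates 2 and 3. Both sums were mostly tg, at 157414 to 238990 CPM in pax2a-high, against 3554 to 32404 CPM in pax2a-low libraries. The 15 ionocyte markers summed to 14.2 to 65.2 CPM in pax2a-high, against 3901 to 7135 CPM in pax2a-low libraries. In every pax2a-high library foxi3a, gcm2, ca15a, rhbg, rhcgb and kcnj1a.5 were at 0 counts. Of these, foxi3a and rhcgb were also at 0 in pax2a-low replicate 3, and gcm2 in replicate 1. Of the 10 tested, 5 were called lower and 0 higher, beside 1.46% and 1.12% of all genes. Nothing is read from that count. The 5 called, foxi3b, ca15a, rhbg, atp1b1b and kcnj1a.5, passed the filter on low counts only through the pax2a-low libraries. Some markers did not follow the sum: atp6v1ab averaged 1.59 CPM in pax2a-high, against 0.300 CPM in pax2a-low libraries, and atp6v1aa and slc9a3.2 overlapped. The slc4a4b level was 1107 CPM in pax2a-low replicate 2, and below every pax2a-high value in the other pax2a-low libraries. The 10 macrophage markers summed to 323 to 425 CPM in pax2a-high, against 591 to 1620 CPM in pax2a-low libraries, with 0 of the 6 tested passing the test. Without overlap, mpeg1.2, cd74a and cd74b averaged 3.01, 47.8 and 38.7 CPM in pax2a-high, against 96.1, 570 and 299 CPM in pax2a-low libraries. The row si:ch211-212k18.7, matched to the marker cd68, ran against the sum, at a mean of 288 CPM in pax2a-high, against 98.4 CPM in pax2a-low libraries. The gene lcp1 was at 0 in all pax2a-low libraries, and mpeg1.1, csf1rb and ctss2.1 also averaged higher in pax2a-high libraries, at low levels. The ranges of the epidermis, fibroblast, lymphocyte and erythrocyte sums overlapped. Without overlap, the epidermis markers evpla and krt17 averaged 55.4 and 1.48 CPM in pax2a-high, against 245 and 69.1 CPM in pax2a-low libraries. The erythrocyte marker slc4a1a averaged 11.6 CPM in pax2a-high, against 0 CPM in pax2a-low libraries. No marker of these lists passed edgeR's test, and the other tested ones overlapped. Pax2a-low replicate 3 stood apart from the other pax2a-low libraries with 2014 pax2a counts against 12 and 10. Mitochondrial rows took 0.799 to 1.17% of pax2a-high counts, against 24.1 to 49.0% of pax2a-low counts. These differences ran along the same split as every result below. Apart from a refit without mitochondrial rows, given at the end, their part in those results was not tested. In bulk samples, fewer cells of a type and less RNA per cell cannot be told apart.

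Among the 10 genes, her6 and her15.1 were higher in pax2a-high cells. Higher mean levels that did not pass the test were seen for jag2b, notch2, jag1b and her9, and lower ones for notch1b and notch3. The remaining pair, notch1a and jag1a, was read almost only in 1 pax2a-low library. Of the 10 genes, 8 passed the filter on low counts. Over all 12524 genes tested, edgeR's quasi-likelihood test with Benjamini-Hochberg adjustment at 0.05 called 1.12% higher and 1.46% lower in pax2a-high cells, together 2.58%. Of the 8, 2 were called higher and 0 lower. At an unadjusted p under 0.05, 2 were higher and 0 lower, beside 9.76% and 4.6% of all genes tested. DESeq2 called 2 higher and 0 lower, beside 7.05% and 4.4% of the genes to which it gave an adjusted p. Limma called 1 higher and 0 lower, beside 0.79% and 2.21% of all genes. The pax2a-high libraries lay above the pax2a-low libraries without overlap for 4 of the 8 and below for 1, against 21.4% and 8.11% of all genes tested, together 29.6%. Nothing is read from these counts, because the contrast was known when the genes were picked. In addition, her15.1 and jag2b would not have passed the filter from the pax2a-low libraries alone, nor notch1b from the pax2a-high libraries alone.

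**Figure D1:**
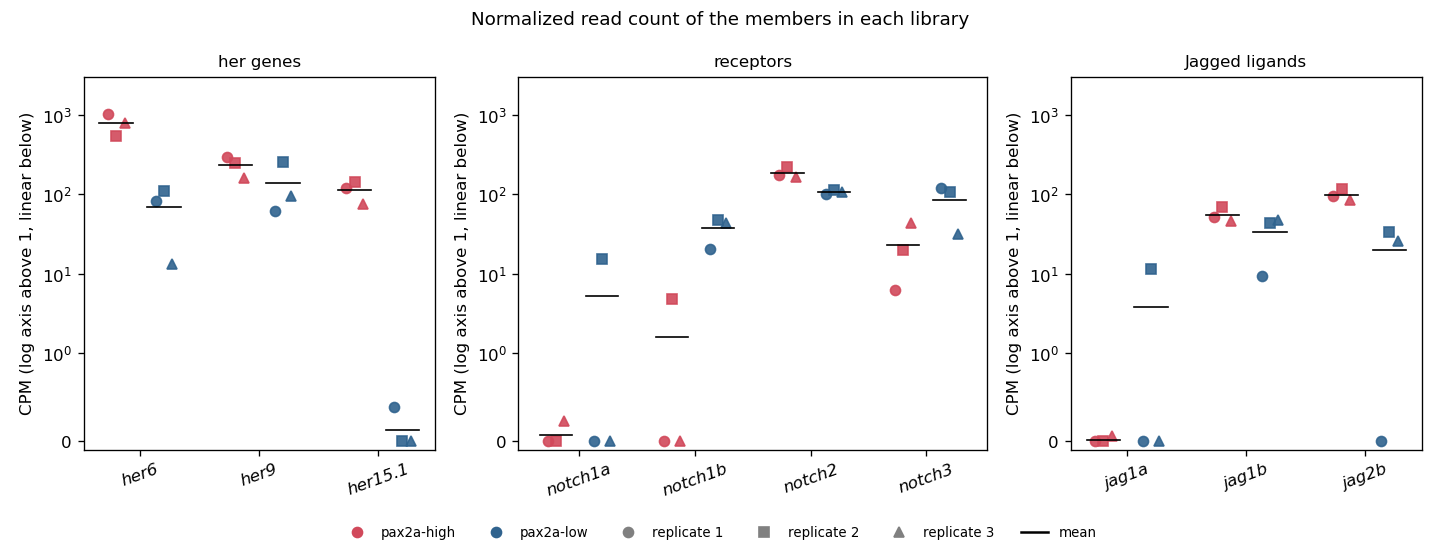
Normalized read count (CPM, on an axis that is logarithmic above 1 and linear below) of the 10 genes in each library, with pax2a-high in red left of pax2a-low in blue, a marker shape per replicate and a black line at the mean of 3 libraries. The her6 points lie between 551 and 1031 CPM in pax2a-high and between 13.2 and 109 CPM in pax2a-low libraries, while her15.1 lies near 0 in all pax2a-low libraries.

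The gene her6 (ENSDARG00000006514), the zebrafish counterpart of mammalian Hes1, was read 16879, 10884 and 28654 times in the pax2a-high and 434, 882 and 170 times in the pax2a-low libraries. Its level was 1031, 551 and 805 CPM in pax2a-high, against 83.7, 109 and 13.2 CPM in pax2a-low libraries. Every pax2a-high library lay above every pax2a-low library, and the lowest value of all was that of pax2a-low replicate 3, the pax2a-low library with the most pax2a counts. The means were 795 ± 240 CPM in pax2a-high, against 68.8 ± 49.8 CPM over the pax2a-low libraries (SD, n = 3 each), an 11.6-fold difference (edgeR log2 fold change 3.53, SE 0.66, adjusted p = 0.0064). With any 1 library left out the log2 fold change stayed between 2.99 and 4.01, and edgeR's call was lost when replicate 1 of pax2a-high (adjusted p = 0.052) or of pax2a-low (adjusted p = 0.098) was left out. The call was also lost with limma (adjusted p = 0.052) and, by edgeR, without both libraries numbered 1 (0.283) or 2 (0.222).

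The gene her15.1 (ENSDARG00000054562), related to mammalian Hes5, was at 121, 142 and 75.1 CPM in the pax2a-high libraries. In the pax2a-low libraries it had 2, 0 and 0 counts, or 0.386, 0 and 0 CPM, so all of its pax2a-low values were at or below the level of 3 counts. In counts it was read 1975, 2807 and 2673 times in the pax2a-high libraries. The ratio of pooled rates was 1355, with a 95% exact interval of 375 to 11189. That interval covers counting error only, takes each count as separate, and is wide because the pax2a-low libraries held 2 counts in all. After every library was thinned at random to the total of the shallowest, 6053741 counts with mitochondrial rows included, her15.1 still had 665, 823 and 471 counts in pax2a-high libraries, against 2, 0 and 0 in pax2a-low libraries. The edgeR adjusted p was 0.0016, and the call was kept with any 1 library left out, though not without both libraries numbered 1 (0.068) or 2 (0.264).

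The table has a tandem copy of this gene, her15.2 (ENSDARG00000054560), and the symbol table drawn on the GRCz12tu assembly places her2, her15.1 and her15.2 as consecutive protein-coding genes. The level of her15.2 was 18.2, 20.1 and 16.8 CPM in pax2a-high libraries, against 0 counts in each pax2a-low library. That made it at least 46.5-fold higher against a floor of 3 counts per library, without passing the test (edgeR adjusted p = 0.142). Another Hes5-like gene, her2 (ENSDARG00000038205), was at 7.51, 17.9 and 30.2 CPM in pax2a-high, against 0, 0 and 0.779 CPM in pax2a-low libraries, again short of the threshold (edgeR adjusted p = 0.349). Reads that fit both her15 copies could be split between them, so their separate values are uncertain. Summed, the copies had 2273, 3204 and 3270 counts in pax2a-high, against 2, 0 and 0 counts in pax2a-low libraries (edgeR adjusted p = 0.00082), a sum chosen after the data were seen.

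The gene her9 (ENSDARG00000056438) encodes another Hes-type repressor and has been described in the zebrafish neural plate as acting apart from Notch. It was at 296, 250 and 159 CPM in pax2a-high, against 60.9, 256 and 96.8 CPM in pax2a-low libraries. The groups overlapped, since pax2a-low replicate 2 was above 2 of the 3 pax2a-high libraries. The means of 235 ± 69.7 CPM in pax2a-high, against 138 ± 104 CPM over the pax2a-low libraries (SD, n = 3 each) differed by less than the larger SD (edgeR log2 fold change 0.77, SE 0.61, adjusted p = 0.735).

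Of 25 rows of other her, hes, hey and bhlhe genes, 5 had enough counts to test. Among these, 0 passed edgeR's test in either direction, while 2 were higher and 0 lower at an unadjusted p under 0.05 (9.76% and 4.6% of all genes), DESeq2 called 2 higher and 0 lower (7.05% and 4.4%), and limma 1 higher and 0 lower (0.79% and 2.21%). The median log2 fold change of the 5 was 1.73, beside 0.35 over all genes tested. Nothing is read from these counts or this median, because her15.2 and her2 passed the filter on low counts only through the pax2a-high libraries. The gene bhlhe41, which encodes a repressor known from the circadian clock, was at 276, 212 and 325 CPM in pax2a-high, against 84.4, 67.7 and 96.8 CPM in pax2a-low libraries. The groups stood apart, but the test was not passed (edgeR log2 fold change 1.71, SE 0.54, adjusted p = 0.126). Further genes were chosen for mention after their values were seen. The Notch target gene hey1 was at 54.1, 61.3 and 44.4 CPM in pax2a-high, against 0, 48.1 and 0 CPM in pax2a-low libraries, so it was read in 1 pax2a-low library only (edgeR adjusted p = 0.857). The paralogue of bhlhe41, bhlhe40, ran the other way, at 65.6, 110 and 73.6 CPM in pax2a-high, against 170, 133 and 241 CPM in pax2a-low libraries (edgeR adjusted p = 0.446). Of low abundance, her11 had 0, 122 and 312 counts in pax2a-high and 0 counts in all pax2a-low libraries, and her12 had 120 counts in pax2a-high replicate 3 and 0 elsewhere. Others did not follow this pattern: her1 had 0, 94 and 12 counts in pax2a-high, against 226, 0 and 0 counts in pax2a-low libraries, and hey2 had 2 counts in all pax2a-high libraries together, against 10 in the pax2a-low libraries. The rows of the her4 genes, the classical Notch targets of the zebrafish nervous system, were at 0 in all 6 libraries. How reads that fit several her4 rows were counted is not given, so these zeros do not show that the genes were silent.

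**Figure D2:**
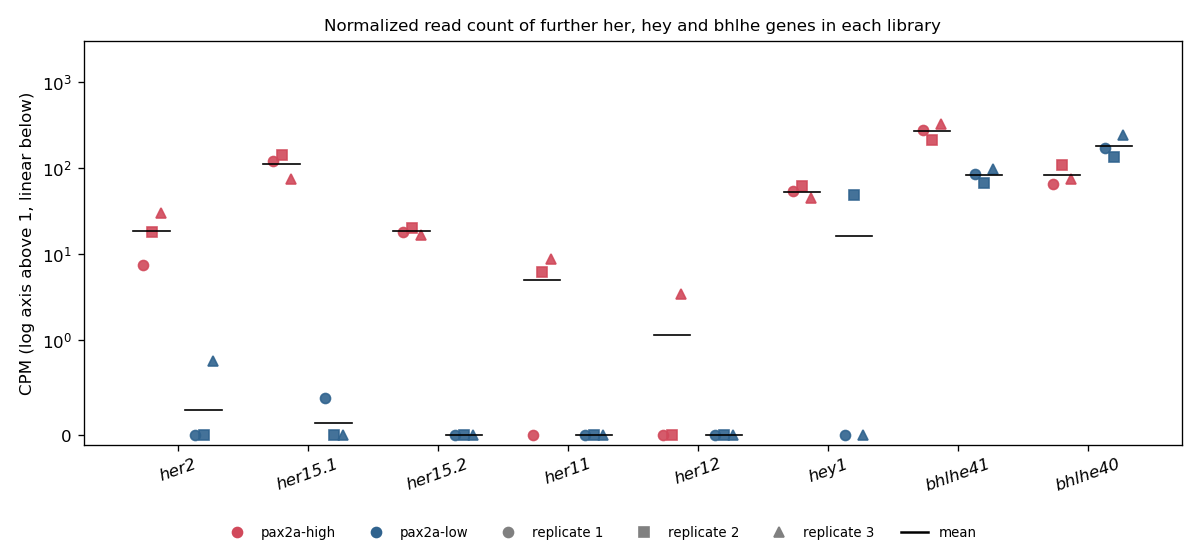
Normalized read count (CPM, on an axis that is logarithmic above 1 and linear below) of her2, her15.1, her15.2, her11, her12, hey1, bhlhe41 and bhlhe40 in each library, pax2a-high in red left of pax2a-low in blue, with a line at the mean of 3 libraries. The 3 consecutive genes her2, her15.1 and her15.2 are read in every pax2a-high library and lie below 1 CPM in every pax2a-low library, whereas bhlhe40 lies higher in pax2a-low cells.

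Of the receptors, notch2 (ENSDARG00000043130) was the steadiest. It was at 176, 222 and 166 CPM in pax2a-high, against 102, 114 and 106 CPM in pax2a-low libraries. Each pax2a-high value exceeded each pax2a-low value. The means were 188 ± 29.7 CPM in pax2a-high, against 107 ± 6.0 CPM over the pax2a-low libraries (SD, n = 3 each), a 1.76-fold difference that did not pass the test (edgeR log2 fold change 0.81, SE 0.55, adjusted p = 0.643). With 1 library left out the log2 fold change stayed between 0.71 and 0.89.

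The receptor gene notch3 (ENSDARG00000052139) lay on the other side. It was at 6.23, 19.8 and 43.7 CPM in pax2a-high, against 120, 106 and 31.3 CPM in pax2a-low libraries. The groups overlapped, since pax2a-high replicate 3 was above pax2a-low replicate 3 (edgeR log2 fold change -1.88, SE 1.02, adjusted p = 0.467). In vertebrate vessels notch3 is a receptor of mural cells, the smooth muscle cells and pericytes. The 10 mural markers summed to 8.85 to 19.1 CPM in pax2a-high, against 0 to 20.8 CPM in pax2a-low libraries, and 3, 3 and 8 of them had a count in the pax2a-high libraries, against 1, 6 and 0 in the pax2a-low libraries. The defining gene pdgfrb was at 0, 0 and 1.01 CPM in pax2a-high, against 0, 1.74 and 0 CPM in pax2a-low libraries. The smooth muscle gene acta2 was at 0, 6.58 and 6.35 CPM in pax2a-high libraries and 0 in all pax2a-low libraries, while myh11a was at 1.22, 2.23 and 5.05 CPM in pax2a-high, against 0, 14.6 and 0 CPM in pax2a-low libraries. The part of mural cells in the notch3 values was not tested.

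The receptor gene notch1b (ENSDARG00000052094), which acts in zebrafish blood vessel and heart development, had 0, 96 and 0 counts in pax2a-high, against 106, 388 and 564 counts in pax2a-low libraries. These correspond to 0, 4.86 and 0 CPM in pax2a-high, against 20.4, 48.1 and 43.9 CPM in pax2a-low libraries. The groups did not overlap, and the test was not passed (edgeR log2 fold change -4.53, SE 2.44, adjusted p = 0.463). The fold change rested on pax2a-high replicate 2, the only pax2a-high library with a count, without which the value was -12.17. From the pax2a-high libraries alone the gene would not have passed the filter on low counts. The 18 endothelial markers summed to 48.8 to 92.4 CPM in pax2a-high, against 55.9 to 150 CPM in pax2a-low libraries. Of the 18, 3, 8 and 15 had a count in the pax2a-high libraries, against 3, 7 and 6 in the pax2a-low libraries. Of the list, 3 were at 0 in all pax2a-high libraries and 7 in all pax2a-low libraries. The defining gene pecam1 was at 0 in all 6 libraries, and kdrl and cdh5 were at 0 in all pax2a-low libraries but also in pax2a-high replicate 1, cdh5 in replicate 2 too. At 0 in all pax2a-high libraries, egfl7 had 590 counts in pax2a-low replicate 3 only, and tie1 had 2 in pax2a-low replicate 1 only. The gene she was at 0, 0 and 2.47 CPM in pax2a-high, against 23.9, 12.2 and 0 CPM in pax2a-low libraries. Read in both populations, tek was at 57.9, 30.2 and 28.9 CPM in pax2a-high, against 0, 59.7 and 24.1 CPM in pax2a-low libraries. The part of endothelial cells in the notch1b values was not tested.

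The fourth receptor gene, notch1a (ENSDARG00000103554), had 0, 0 and 8 counts in pax2a-high, against 0, 125 and 0 counts in pax2a-low libraries. The ligand gene jag1a (ENSDARG00000030289) had 0, 0 and 2 counts in pax2a-high, against 0, 93 and 0 counts in pax2a-low libraries. Both were thus seen mainly in pax2a-low replicate 2, the pax2a-low library with the most genes detected (14215), and neither passed the filter on low counts. No difference between the populations can be read from 1 library.

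Taken as shares of the summed CPM of the 4 receptor genes, which are not corrected for gene length, notch2 made up 96.6, 90.0 and 79.1% in pax2a-high, against 41.9, 40.1 and 58.6% in pax2a-low libraries. The share of notch1b was 0, 1.97 and 0% in pax2a-high, against 8.43, 17.0 and 24.2% in pax2a-low libraries. The share of notch3 was 3.41, 8.04 and 20.8% in pax2a-high, against 49.6, 37.4 and 17.2% in pax2a-low libraries. Receptor counts in pax2a-high cells thus came mostly from notch2, and those in pax2a-low cells from notch2, notch3 and notch1b together. The receptor sum itself was 213 ± 32.2 CPM in pax2a-high, against 236 ± 50.9 CPM over the pax2a-low libraries (SD, n = 3 each), a difference smaller than either spread.

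Of the Jagged ligands, jag2b (ENSDARG00000021389) was at 96.0, 116 and 85.8 CPM in pax2a-high, against 0, 33.9 and 25.7 CPM in pax2a-low libraries. The pax2a-high libraries all lay above the pax2a-low libraries, and pax2a-low replicate 1 had no count at all. From the pax2a-low libraries alone the gene would not have passed the filter on low counts. The 4.99-fold difference did not pass the test (edgeR log2 fold change 2.32, SE 1.30, adjusted p = 0.501).

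The ligand gene jag1b (ENSDARG00000013168) was at 52.0, 68.8 and 46.2 CPM in pax2a-high, against 9.25, 43.2 and 48.2 CPM in pax2a-low libraries. The groups overlapped, since pax2a-high replicate 3 lay below pax2a-low replicate 3 (edgeR log2 fold change 0.73, SE 1.05, adjusted p = 0.900). Of the summed CPM of the 3 picked Jagged genes, jag2b made up 64.9, 62.8 and 65.0% in pax2a-high, against 0, 38.2 and 34.8% in pax2a-low libraries. The proportion was nearly constant across the pax2a-high libraries, and jag1b took the larger share in every pax2a-low library. The sum of these 3 genes was 148, 185 and 132 CPM in pax2a-high, against 9.25, 88.6 and 73.9 CPM in pax2a-low libraries, without overlap. A further Jagged gene, jag2a, was not among the picked genes and is left out of these shares and sums. It was at 4.27, 7.89 and 15.0 CPM in pax2a-high, against 0, 5.83 and 20.6 CPM in pax2a-low libraries, with overlap (edgeR adjusted p = 0.987).

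**Figure D3:**
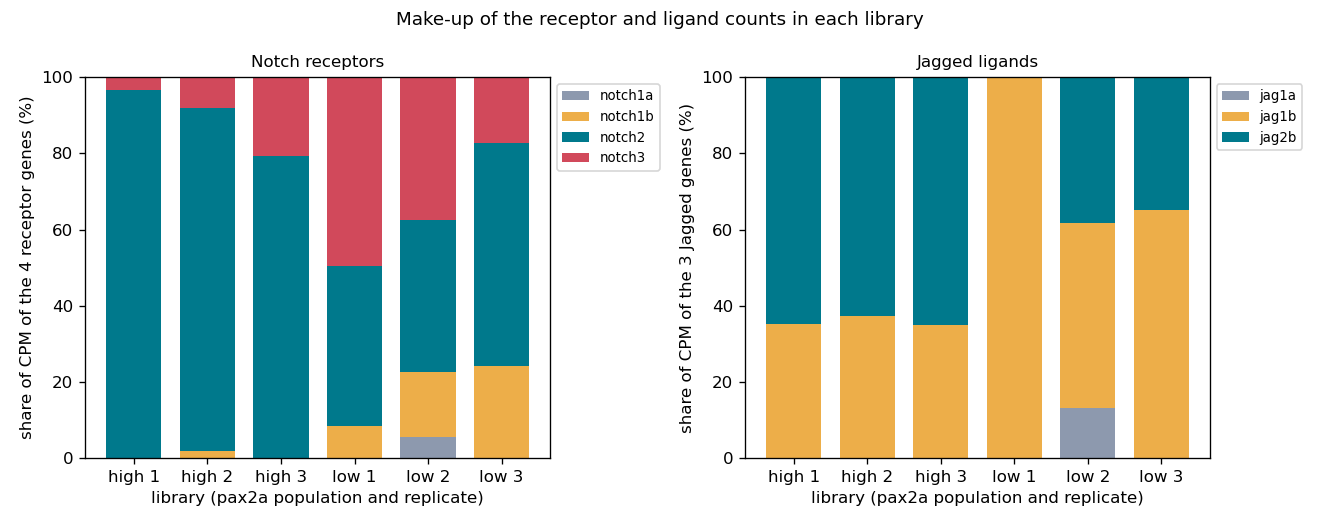
Share of the summed CPM of the 4 receptor genes (left) and of the 3 picked Jagged genes (right) that came from each gene, in percent, with 1 bar per library and pax2a-high bars left of pax2a-low bars. The notch2 share is 79.1 to 96.6% in pax2a-high, against 40.1 to 58.6% in pax2a-low libraries, and the jag2b share is 62.8 to 65.0% in pax2a-high, against 0 to 38.2% in pax2a-low libraries.

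The rest of the pathway was read from 122 listed genes in 7 roles, of which 112 rows were found and 73 tested. Of the 73, edgeR called 1 higher and 1 lower, close to the 1.12% and 1.46% of all genes. The log2 fold change was positive for 38 and negative for 35, beside 7154 and 5370 of all 12524 genes tested. The median for the 73 was 0.04, beside 0.35 over all genes tested. DESeq2 called 5 higher and 3 lower, where its shares of all genes were 7.05% and 4.4%, and limma called her15.2 higher and foxi3b lower, beside 0.79% and 2.21%. Nothing is read from these counts or this median. The genes her15.2, her2 and id4 passed the filter on low counts only through the pax2a-high libraries, and foxi3b only through the pax2a-low libraries.

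The gene that rose was spen (ENSDARG00000074245), whose product is a large RNA-binding corepressor that in mammals binds Rbpj. It was at 538, 1036 and 547 CPM in pax2a-high, against 117, 168 and 62.6 CPM in pax2a-low libraries. All pax2a-high values were above all pax2a-low values, and the log2 fold change was 2.61 (SE 0.52, edgeR adjusted p = 0.0097). The call held with any 1 library left out and was lost with limma (adjusted p = 0.101) and, by edgeR, without both libraries numbered 1 (0.244) or 2 (0.259). Of the 19 tested genes of the nuclear complex, spen was the one called and 18 did not pass. The corepressor gene ncor1 was at 230, 295 and 350 CPM in pax2a-high, against 624, 335 and 802 CPM in pax2a-low libraries, with overlap between the groups (edgeR log2 fold change -1.01, SE 0.46, adjusted p = 0.314). The gene rbpja encodes a DNA-binding protein of the pathway and was picked after its values were seen. It was at 122, 75.4 and 52.3 CPM in pax2a-high, against 15.4, 36.7 and 21.5 CPM in pax2a-low libraries. The groups did not overlap, yet the test was not passed (edgeR log2 fold change 1.76, SE 0.93, adjusted p = 0.446). The other rbpj gene of the list, rbpjb, averaged 11.5 CPM in pax2a-high, against 17.2 CPM in pax2a-low libraries, with overlap. That pax2a-low mean rested mostly on replicate 3, at 51.0 CPM. The rbpjb fold change had the opposite sign and did not pass (edgeR log2 fold change -0.58, SE 2.25, adjusted p = 0.978).

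The gene that fell was foxi3b (ENSDARG00000009550), the ionocyte factor, listed among 11 tested proneural and lineage factors. It had 0, 0 and 4 counts in pax2a-high, against 1732, 3530 and 3311 counts in pax2a-low libraries (edgeR log2 fold change -12.62, SE 1.14, adjusted p = 4.34e-06). The size of that fold change is uncertain, because it rests on 4 counts in pax2a-high replicate 3. The gene is also one of the 15 ionocyte markers summed above and was known to differ when the list was drawn up. It passed the filter on low counts only through the pax2a-low libraries. Its pattern was the reverse of that of her15.1, which was read in every pax2a-high and almost no pax2a-low library. Both genes were picked with the contrast known, and a relation between them was not tested. In the same list tp63, a factor of epidermal basal cells, was at 0, 0 and 0.927 CPM in pax2a-high, against 16.8, 61.3 and 0 CPM in pax2a-low libraries (edgeR adjusted p = 0.381). The gene id4, which encodes an inhibitor of helix-loop-helix factors, was at 12.2, 4.86 and 6.88 CPM in pax2a-high libraries and 0 counts in all pax2a-low libraries, at least 20.2-fold higher by the same floor and not past the threshold (edgeR adjusted p = 0.196).

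Upstream of the nucleus, 0 of 38 tested genes passed edgeR's test: 4 other ligands, 14 genes of ligand and receptor processing, 6 glycosyltransferases and 14 endocytic and other modulators. At an unadjusted p under 0.05 1 processing gene was higher and 1 lower, and 1 modulator was lower. DESeq2 called 1 processing gene higher and 1 lower and 1 modulator lower, and limma called 0. The shares of all genes given above are the background for these counts. The Delta ligand gene dlc was at 29.9, 60.8 and 77.9 CPM in pax2a-high, against 0, 107 and 14.5 CPM in pax2a-low libraries (edgeR adjusted p = 0.969). For dll4, the Delta ligand of arterial endothelium, the values were 22.5, 2.93 and 4.46 CPM in pax2a-high, against 4.63, 40.3 and 14.6 CPM in pax2a-low libraries (edgeR adjusted p = 0.940). Both ligands varied more within each population than between the populations. The third named gene of the list, cntn1a, which encodes a contactin cell adhesion molecule, did not pass either (edgeR log2 fold change 2.11, SE 2.66, adjusted p = 0.879).

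No gene of an ADAM protease passed the test. The protease gene adam17b was at 95.6, 44.4 and 57.0 CPM in pax2a-high, against 10.02, 1.86 and 0.312 CPM in pax2a-low libraries (edgeR log2 fold change 4.02, SE 1.51, adjusted p = 0.198). Its relative adam10a, of the class that makes the first Notch cut, was at 76.1, 46.7 and 84.6 CPM in pax2a-high, against 199, 126 and 129 CPM in pax2a-low libraries (edgeR log2 fold change -1.13, SE 0.63, adjusted p = 0.494). In neither case did the groups overlap. Their paralogue adam10b was at 25.9, 17.0 and 11.1 CPM in pax2a-high, against 20.6, 2.98 and 1.09 CPM in pax2a-low libraries, with overlap (edgeR log2 fold change 1.13, SE 2.04, adjusted p = 0.931), and for adam17a the log2 difference was -0.12, with an SE of 1.19 (edgeR adjusted p = 0.993). The ligase gene neurl1aa, of the Neuralized family that drives ligand uptake, had 16, 12 and 0 counts in pax2a-high, against 628, 312 and 12 counts in pax2a-low libraries (edgeR adjusted p = 0.161). It was near the level of the pax2a-high libraries in pax2a-low replicate 3, and without that library its log2 fold change was -7.32 (edgeR adjusted p = 0.014).

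Among the modulators, nrarpa, a Notch target gene whose product dampens the pathway, was at 183, 163 and 91.5 CPM in pax2a-high, against 22.7, 75.6 and 1.25 CPM in pax2a-low libraries. The pax2a-high libraries were all above the pax2a-low ones (edgeR log2 fold change 2.14, SE 1.01, adjusted p = 0.352). The gene of the ubiquitin ligase subunit that marks the cleaved receptor for degradation, fbxw7, was at 121, 88.2 and 97.8 CPM in pax2a-high, against 0, 37.0 and 16.2 CPM in pax2a-low libraries (edgeR adjusted p = 0.439). The ubiquitin ligase gene nedd4a was at 25.3, 14.4 and 18.2 CPM in pax2a-high, against 135, 221 and 70.1 CPM in pax2a-low libraries (edgeR log2 fold change -2.88, SE 0.79, adjusted p = 0.070). It passed edgeR's test when pax2a-low replicate 1 (adjusted p = 0.036) or 3 (adjusted p = 0.014) was left out. The glycosyltransferase genes with the smallest p were poglut2, rfng and poglut1, with log2 fold changes of 4.23 (SE 3.12), 2.88 (SE 2.51) and 3.63 (SE 2.84) and edgeR adjusted p of 0.694, 0.773 and 0.730.

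**Figure D4:**
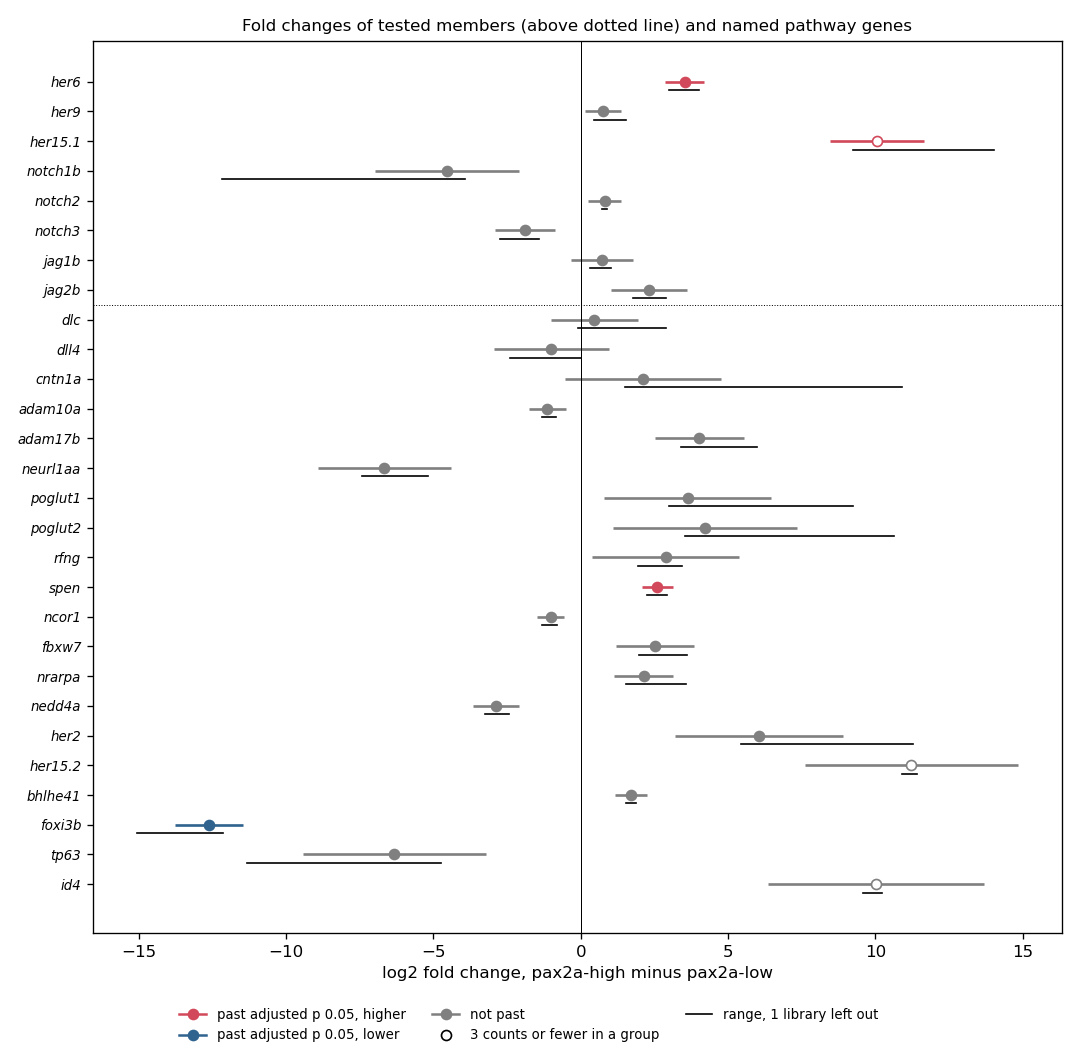
Log2 fold change, pax2a-high minus pax2a-low, with its standard error, of the 8 tested picked genes (above the dotted line) and of the named pathway genes, with a thin black line for the range when 1 library is left out. Red and blue mark genes past the adjusted p of 0.05, grey those not past it, and open circles genes with 3 counts or fewer in a group, whose fitted value depends on the model's prior count. The calls are her6, her15.1 and spen on the higher side and foxi3b on the lower side.

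Genes with the most similar pattern over the 6 libraries were ranked by Pearson's r of log2(CPM + 1). The ranking covered 9012 genes with a mean of at least 5 CPM and a descriptive symbol, leaving out clone-based and similar provisional names. For her15.1 the 5 closest were msrb3, creld1b, whrna, pkp3b and ppp1r3cb (r of 0.999, 0.999, 0.998, 0.998 and 0.998), each at 17.0 to 52.9 CPM on average in pax2a-high, against 0 to 0.474 CPM in pax2a-low cells. For her6 they were rbm47, klhl24b, ola1, sulf2b and srsf1a (r of 0.994, 0.993, 0.993, 0.992 and 0.990), and for her9 upf3a, hmgcra, oser1, pde12 and traf7 (r of 0.988, 0.987, 0.985, 0.983 and 0.983). With 6 libraries in 2 groups of unequal depth, these values describe a shared pattern and nothing further. Between the picked genes themselves, r was highest for notch1a with jag1a (0.999), both read almost only in pax2a-low replicate 2. The lowest r was -0.90, for notch1b with her15.1. Other pairs were chosen for mention after their values were seen. For these, r was 0.90 for her6 with her15.1, 0.96 for notch2 with her15.1, 0.97 for jag1b with jag2b and -0.88 for her6 with notch1b.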

How the data were processed

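The deposited values were read counts per gene, in whole numbers and unnormalized. Per the submitters' processing notes, HISAT2 was used with GRCz11 and featureCounts for counting; versions, strand setting and multiply mapped reads are not given in the sources used here. Even numbers made up 67.8 to 89.0% of the non-zero counts of a library, as when both mates of a pair count, so a count is not a separate molecule. The intervals and floors treat each count as separate and reflect counting error alone. If both mates were counted, the intervals are too narrow and the floors too low. Groups and replicate numbers came from sample titles, and the column names carry matching set numbers.

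Differential expression was computed in edgeR 4.0.16 (R 4.3.3) with filterByExpr, TMM scaling, a robust quasi-likelihood fit on group alone and Benjamini-Hochberg adjustment over all genes tested. Fold changes set pax2a-high over pax2a-low on the log2 scale, and their standard errors come from the quasi-likelihood statistic. On simulated data the fit recovered strongly changed genes at a small spread between replicates and called none of them at a large one. The large spread was close to that of these data (common coefficient of variation between replicates 1.50), and the small one lay well below it. Every simulated gene had the same spread, whereas the fit of these data estimated the spread gene by gene and did call genes. The simulation therefore does not give the power of this fit. A gene that was not called is still not shown to be unchanged. The picked genes, the gene lists and the tests were chosen with earlier results of these data known. Named pathway genes were, per role list, every gene called and the 3 with the smallest p. Alternatives were other scaling, filters, a fit without mitochondrial rows, DESeq2 1.42.0, limma 3.58.1 (voom with quality weights) and a replicate block. Further ones were summed her15 copies, thinned or halved counts, a threshold of 0.01 and left-out libraries. A search of promoters for motifs was planned and not made, and no sequences were used here. Names for 11 listed pathway genes were not matched and were not analysed here. A pathway gene outside the 10, named by that rule, is not reported here.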

Additional observations from a re-analysis of the deposited data

How the results depend on the processing

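Of the 20 alternatives, the threshold of 0.01 kept the fold changes of the main fit, so no sign could turn there. Summing the her15 copies was hardly a test of signs either: her6 stayed at 3.53 and the median of all genes at 0.35. Over the 20 alternatives, the log2 fold changes of the 8 tested picked genes kept their sign in each one. Among all 29 named genes the sign turned in 4 of 566 values, all for genes not called. These were dll4 without pax2a-low replicate 2 (0.02) and without both libraries numbered 2 (0.49), and dlc without pax2a-low replicate 1 (-0.07) and without both numbered 3 (-0.24). With libraries left out dll4 ranged from -2.87 to 0.49 and dlc from -0.24 to 2.93. The count of picked genes called higher was 2, and 1 with limma, where her6 had an adjusted p of 0.052. With 1 library or both libraries of a number left out it was 0 to 2. It was 0 without both libraries numbered 1, where edgeR's adjusted p was 0.283 for her6 and 0.068 for her15.1, or both numbered 2 (0.222 and 0.264). The count of picked genes called lower was 0 throughout.

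Pathway genes called higher numbered 5 with DESeq2, 2 with the replicate block, where nrarpa joined spen, and 0 to 2 with libraries left out (2 without pax2a-low replicate 1 or 2). Those called lower numbered 2 with DESeq2 size factors, without a count filter and after thinning, 3 with DESeq2, and 1 to 3 with libraries left out (3 without pax2a-low replicate 1 or 3). Over all genes, 140 were higher and 183 lower. Without a count filter these were 328 and 299, with DESeq2 823 and 513, and at a threshold of 0.01 they were 44 and 110. The higher genes numbered 73 with a filter of 5 CPM in 3 libraries and 425 with the replicate block, and the lower ones 277 with limma. With libraries left out the higher genes ranged from 6 to 270 and the lower ones from 42 to 253. Of single libraries, pax2a-high replicate 1 left out gave 40 and 120, and the higher genes numbered 246 without pax2a-high replicate 3 and 270 or 247 when replicate 1 or 3 of pax2a-low was left out. The cause of these shifts was not tested. DESeq2 size factors moved the median log2 fold change of all genes to 0.24 from 0.35, and her6 to 3.37. Without mitochondrial rows the median was 0.28, with 142 genes higher and 193 lower. In that fit 2 picked genes were called higher, and her6 was at 3.42 (edgeR adjusted p = 0.0064).

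The column names give a pax2a-high and a pax2a-low library the same set number, without saying what a set shared. Libraries of the same number deviated together only weakly (r of 0.041, 0.047 and 0.052 over 12524 genes), below the 0.1 set for pairing. Each library nonetheless correlated best with its own number. Pairing by set is therefore possible, and the main fit left it out. With the block, her6 had a log2 fold change of 3.91 and her15.1 of 10.63, both called. Thinned to equal totals, her11 had 0, 31 and 45 counts in pax2a-high and 0 in all pax2a-low libraries. By the same thinning, her12 had 14 counts in pax2a-high replicate 3 and 0 elsewhere. Little can be said of either, since her11 was at 0 in pax2a-high replicate 1 and her12 was read in 1 library only.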
